A study of Mus musculus with 6 samples.

Results

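Base excision repair of oxidized DNA is represented here by 10 genes: the DNA glycosylase genes Ogg1, Mutyh, Nthl1, Neil1, Neil3 and Ung, and Apex1, Parp1, Xrcc1 and Polb, whose products act after the glycosylase. The members were taken by name, as the probe sets annotated with that single gene symbol. All 10 were found, each with 1 probe set, among 19938 genes with a single symbol on the array. Affymetrix Mouse Gene 1.0 ST arrays carried RNA from 2 groups of AML-12 cells, a mouse hepatocyte line founded from an animal carrying a human TGF-alpha transgene. The siMnSOD cells (3 arrays) carried a retroviral hairpin against MnSOD, the mitochondrial superoxide dismutase encoded by Sod2, and the siScramble cells (3 arrays) carried a hairpin with a scrambled sequence that recognises no gene. Both groups bore the same puromycin-selected vector, and neither the number of transductions nor that of clones behind the arrays is stated, so the p-values below measure the spread between these samples. The comparison asks how repair genes stand in hepatocytes whose mitochondria have less of the enzyme that removes superoxide.

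Base excision repair removes small lesions from DNA, among them the oxidized bases that reactive oxygen species leave. A glycosylase flips out and cuts off the damaged base, an AP endonuclease nicks the strand beside the empty sugar, and a polymerase and a ligase fill and seal the gap, by 1 nucleotide (short patch) or by a longer stretch that uses the replication clamp and a flap nuclease (long patch). OGG1, MUTYH, NTHL1, NEIL1 and UNG also act in mitochondria, where most superoxide arises. The value per gene on these arrays does not separate nuclear from mitochondrial forms of a product.

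The targeted gene was checked first. Sod2 had intensities of 98.8, 121 and 52.3 in siMnSOD cells, against 248, 254 and 293 in siScramble cells, and its log2 fold change was −1.63 (SE 0.30, adjusted p = 0.037 in limma). The siMnSOD arrays thus all lay below the siScramble arrays, at 32.4% of their level as a ratio of geometric means. Array correlations across all probe sets of log2 intensities ran from 0.976 to 0.993 within the groups and from 0.968 to 0.985 between them. The replicates numbered 3 stood apart from the others of their group in both groups (r 0.984 and 0.985 in siMnSOD, 0.976 and 0.976 in siScramble). The siScramble array numbered 3 correlated more with the siMnSOD array numbered 3 (r 0.979) than with the arrays of its own group. A level of 19.4 intensity units (4.28 on the log2 scale), the 95th percentile of 1027 olfactory receptor genes, served as a guide to background. Of 7 measured hepatocyte markers, Alb and Ttr lay under that guide and Apoa1, Apob, Hnf4a, Krt8 and Krt18 above it. The biliary markers Krt7, Krt19 and Sox9 were above it too, and the summed intensity of the 4 measured biliary markers was 3894 to 4180 in siMnSOD cells and 1904 to 3292 in siScramble cells. For the hepatocyte markers the sum was 14171 to 16690 in siMnSOD cells and 8815 to 14026 in siScramble cells. Above the guide were also 2 of 6 macrophage markers, Cd68 and Csf1r (summed intensity of the list 110 to 128 in siMnSOD cells and 120 to 142 in siScramble cells), 1 of 5 endothelial markers, Stab2 (76.8 to 100.1 in siMnSOD cells and 78.0 to 92.8 in siScramble cells) and 4 of 6 stellate cell and fibroblast markers, Col1a1, Col1a2, Acta2 and Des (163 to 199 in siMnSOD cells and 175 to 195 in siScramble cells). Under it lay Ptprc, Adgre1, Lyz2 and Clec4f of the macrophage list, Pecam1, Cdh5, Kdr and Tek of the endothelial list, and Pdgfrb and Lrat of the stellate cell and fibroblast list. Of all these markers only Hnf4a and Sox9 had an adjusted p under 0.05 in limma, a threshold that 2.17% of all genes passed as higher and 1.58% as lower. The part of these marker shifts in the values below was not tested.

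Of the 10 repair genes, 4 rose in siMnSOD cells and none fell. The 4 were Neil3 and Ung among the glycosylases and Parp1 and Xrcc1 among the later steps. Over all 19938 genes, 2.17% were called higher and 1.58% lower by the same rule, an adjusted p under 0.05 in limma over all tested rows. At an unadjusted p under 0.05, 5 members were higher and 0 lower, against 8.61% and 8.06% of all genes, so that 0 of 10 is near the share of all genes. The 3 siMnSOD arrays all lay above the 3 siScramble arrays for 4 members, against 11.1% of all genes, and below them for 0 members, against 9.73%. The median log2 fold change of the 10 members was 0.37, and that of all genes was 0.01. It was 0.13 for the 6 glycosylase genes and 0.56 for the 4 later genes. With the replicate number as a block, Apex1 also passed, which gave 5 members higher and none lower, against 4.02% and 3.12% of all genes, with 1 member (Polb) lower at an unadjusted p under 0.05, as were 10.8% of all genes. In RNA of whole cultures, fewer cells that express a gene and less of its RNA per cell cannot be told apart.

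**Figure D1:**
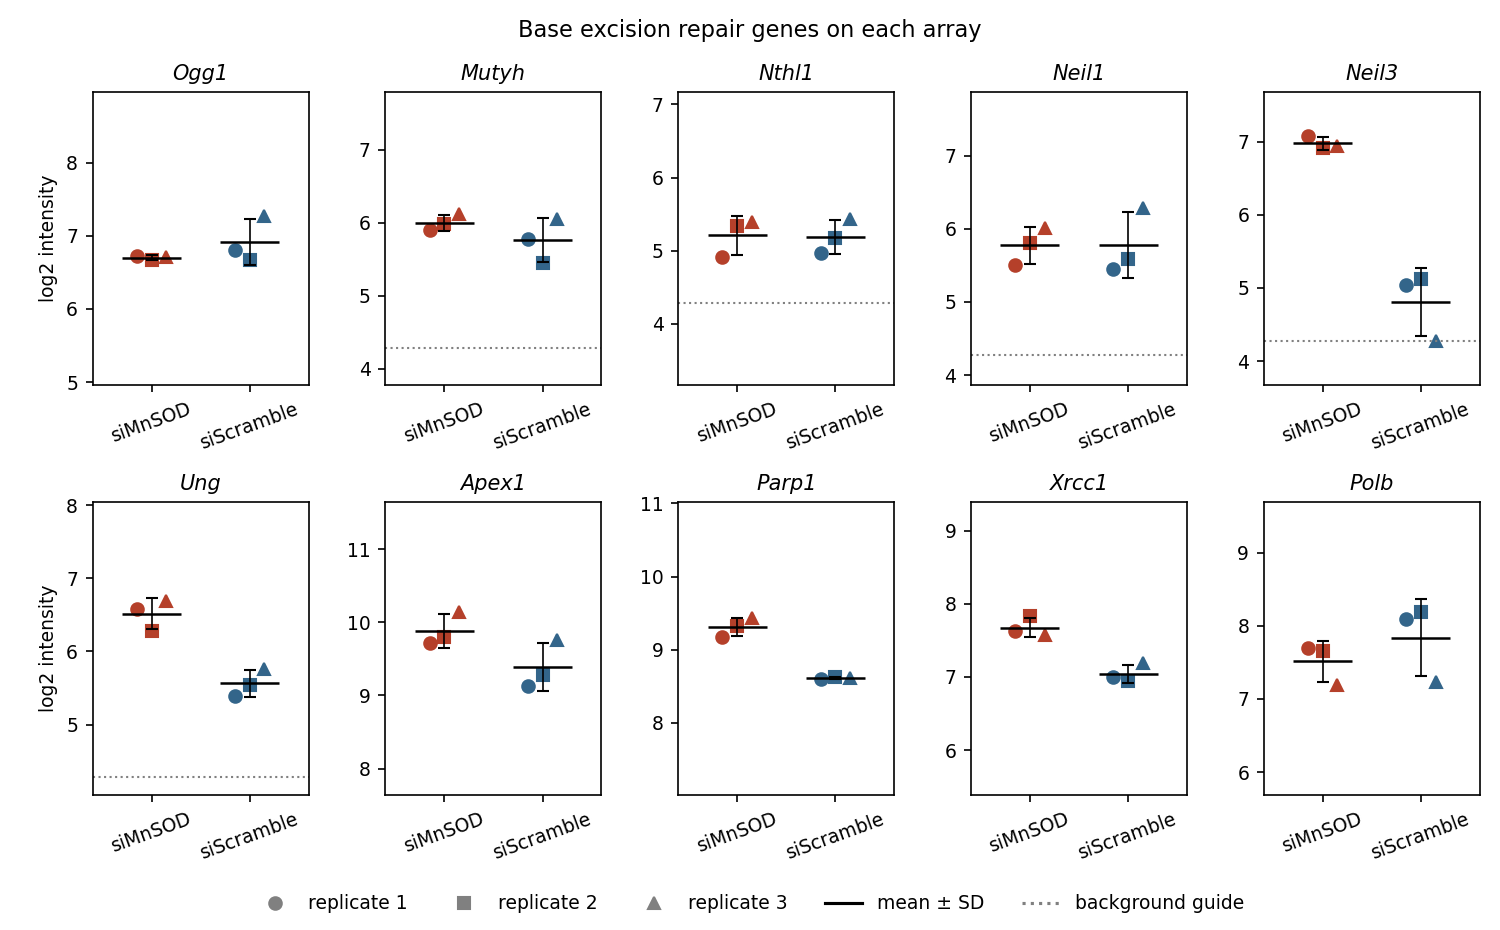
Log2 intensity of the 10 genes on each array, siMnSOD cells on the left and siScramble cells on the right of each panel, with the mean and SD (n = 3) and, where it falls within the axis, the background guide at 4.28. Each panel spans the same log2 range. Neil3, Ung, Parp1 and Xrcc1 have every siMnSOD array above every siScramble array, and the groups of the other 6 genes overlap.

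Neil3 had the highest fold change of the 10. NEIL3 is a glycosylase of the Fpg/Nei family that takes oxidized bases out of single-stranded DNA and also unhooks interstrand crosslinks at stalled replication forks. Its intensity was 135, 121 and 123 in siMnSOD cells, against 32.8, 34.7 and 19.4 in siScramble cells. The siMnSOD arrays were close together, and the siScramble replicate numbered 3 read at the background guide itself, so its level there is known only as an upper limit. The log2 fold change was 2.17 (SE 0.23, 95% interval 1.63 to 2.70, adjusted p = 0.0073), or 4.49-fold, taking the intensity of that array as measured, and 1.90 without that array. Within replicate numbers 1 and 2 the log2 difference was 2.04 and 1.80, and within number 3, whose siScramble value lies at the guide, it was at least 2.66.

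Ung rose by a smaller amount. UNG removes uracil, which enters DNA in place of thymine or arises when cytosine loses its amino group. Its intensity was 95.5, 77.9 and 103 in siMnSOD cells, against 41.8, 46.8 and 54.0 in siScramble cells. Every siMnSOD array lay above every siScramble array, with 1.94-fold between the geometric means (log2 fold change 0.96, SE 0.15, 95% interval 0.59 to 1.32, adjusted p = 0.024).

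The other 4 glycosylase genes, Ogg1, Mutyh, Nthl1 and Neil1, did not pass the test. OGG1 cuts out 8-oxoguanine, the commonest oxidized purine. Ogg1 read 106, 101 and 105 in siMnSOD cells, against 112, 102 and 154 in siScramble cells, with a log2 fold change of −0.21 (SE 0.17, 95% interval −0.61 to 0.18, adjusted p = 0.74). The siMnSOD values were nearly the same on all 3 arrays, and the siScramble values differed mainly by the array numbered 3, which was the highest of the 6. MUTYH removes the adenine that polymerases place opposite 8-oxoguanine. Mutyh read 59.5, 63.0 and 69.4 in siMnSOD cells, against 54.6, 43.9 and 66.4 in siScramble cells (log2 fold change 0.24, SE 0.17, 95% interval −0.16 to 0.63, adjusted p = 0.69). Its groups overlapped through the siScramble array numbered 3.

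NTHL1 and NEIL1 act on oxidized pyrimidines, and NEIL1 also on ring-opened purines. Nthl1 read 30.0, 40.6 and 41.8 in siMnSOD cells, against 31.3, 36.0 and 43.1 in siScramble cells, and Neil1 read 45.6, 55.8 and 64.4 in siMnSOD cells, against 43.7, 48.2 and 78.2 in siScramble cells. In both genes and both groups replicate 1 was the lowest and replicate 3 the highest. The log2 fold changes were 0.02 for Nthl1 (SE 0.18, 95% interval −0.40 to 0.45) and −0.00 for Neil1 (SE 0.24, 95% interval −0.58 to 0.58), with adjusted p = 1.00 for both. The intervals for these 4 glycosylases leave room for changes of up to 1.55-fold upwards in Mutyh and, at the other end, for 0.657 of the siScramble level in Ogg1.

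Among the later steps, Parp1 and Xrcc1 both rose. PARP1 senses single-strand breaks and marks them with poly(ADP-ribose), and XRCC1 is the scaffold that binds this mark and holds the polymerase and ligase at the break. Parp1 read 580, 640 and 689 in siMnSOD cells, against 389, 394 and 391 in siScramble cells. The siScramble arrays differed by little, and the siMnSOD arrays all lay well above them, by 1.62-fold (log2 fold change 0.70, SE 0.11, 95% interval 0.44 to 0.95, adjusted p = 0.021). Xrcc1 read 197, 227 and 191 in siMnSOD cells, against 128, 124 and 146 in siScramble cells, or 1.55-fold (log2 fold change 0.63, SE 0.12, 95% interval 0.34 to 0.92, adjusted p = 0.043). Its groups did not overlap, and the log2 difference was 0.62, 0.88 and 0.39 within replicate numbers 1, 2 and 3.

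Apex1 and Polb, the incision and gap-filling genes, were less settled. APE1, the product of Apex1, cuts the strand at the abasic site and is also a redox regulator of transcription factors. Apex1 read 838, 889 and 1132 in siMnSOD cells, against 562, 619 and 862 in siScramble cells. The siScramble array numbered 3 exceeded the siMnSOD array numbered 1, and the log2 fold change of 0.50 (SE 0.20) had an adjusted p of 0.27. The difference had the same sign in all 3 replicate numbers (0.58, 0.52 and 0.39), and the adjusted p was 0.039 with the number as a block. DNA polymerase beta, the product of Polb, inserts the missing nucleotide and trims the sugar remnant. Polb read 207, 201 and 146 in siMnSOD cells, against 273, 291 and 151 in siScramble cells. Both arrays numbered 3 were the lowest of their group, and the log2 fold change of −0.32 (SE 0.28, 95% interval −0.98 to 0.33) did not pass (adjusted p = 0.79, or 0.20 with the block).

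**Figure D2:**
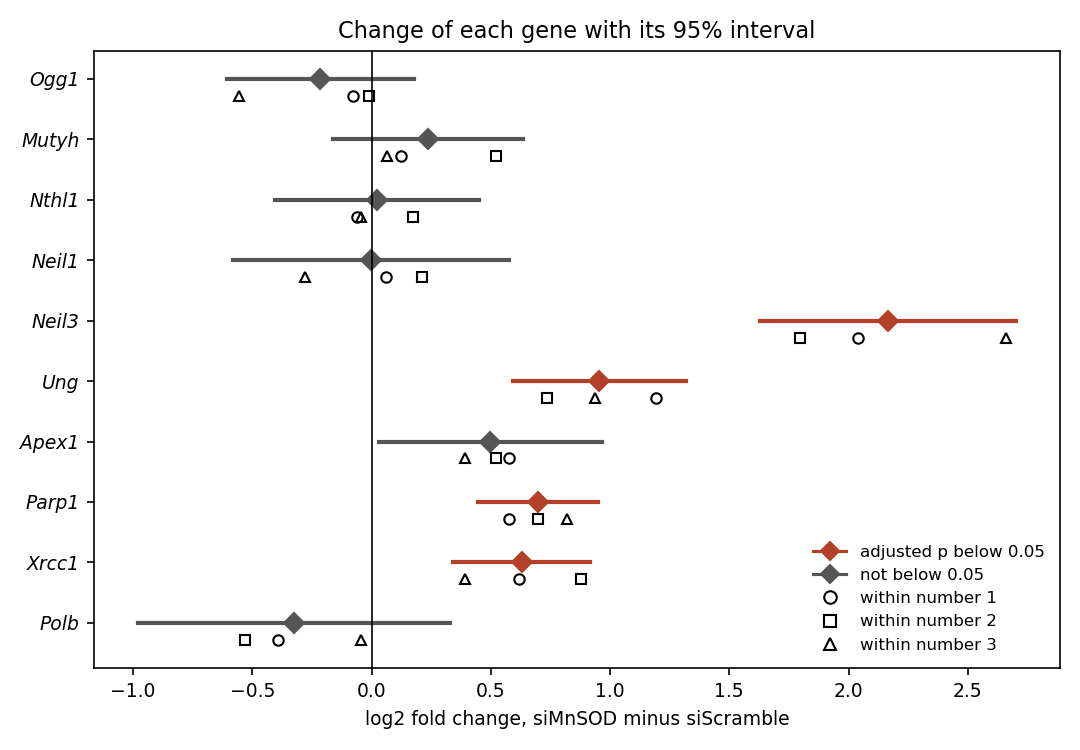
Log2 fold change of each gene, siMnSOD minus siScramble (diamonds), with the 95% interval of the limma fit, and the difference between the arrays of the same replicate number (open symbols, 1 per number). Neil3, Ung, Parp1 and Xrcc1 have intervals above 0 and adjusted p-values under 0.05. The interval of Apex1 starts at 0.03, but its adjusted p is 0.27.

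The calls depended on single arrays. Permuting the 6 arrays exactly between the groups gave a two-sided p of 0.1 for Neil3, Ung, Parp1 and Xrcc1, the smallest that 3 against 3 arrays allow. Neil3 passed in 5 of 6 fits that left out 1 array and had an adjusted p of 0.056 without siMnSOD replicate 2. Parp1 passed without siMnSOD replicate 3 or siScramble replicate 3, and reached 0.12 at most. Ung and Xrcc1 passed only without siScramble replicate 3, and reached 0.11 and 0.19. Of the 10 members, 1 was called higher without siMnSOD replicate 1, 0 without siMnSOD replicate 2, 2 without siMnSOD replicate 3, 1 without siScramble replicate 1, 1 without siScramble replicate 2 and 5 without siScramble replicate 3. The genes called higher over the whole array numbered 100, 52, 357, 133, 118 and 1119 in the same order, and 432 with all arrays. In these 6 fits the log2 fold change stayed between 1.90 and 2.32 for Neil3, 0.87 and 1.07 for Ung, 0.64 and 0.76 for Parp1, and 0.55 and 0.70 for Xrcc1. Xrcc1 also missed the threshold after centring arrays on their medians (adjusted p = 0.055), with every probe set tested (0.074) and with a trended, robust prior (0.062).

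**Figure D3:**
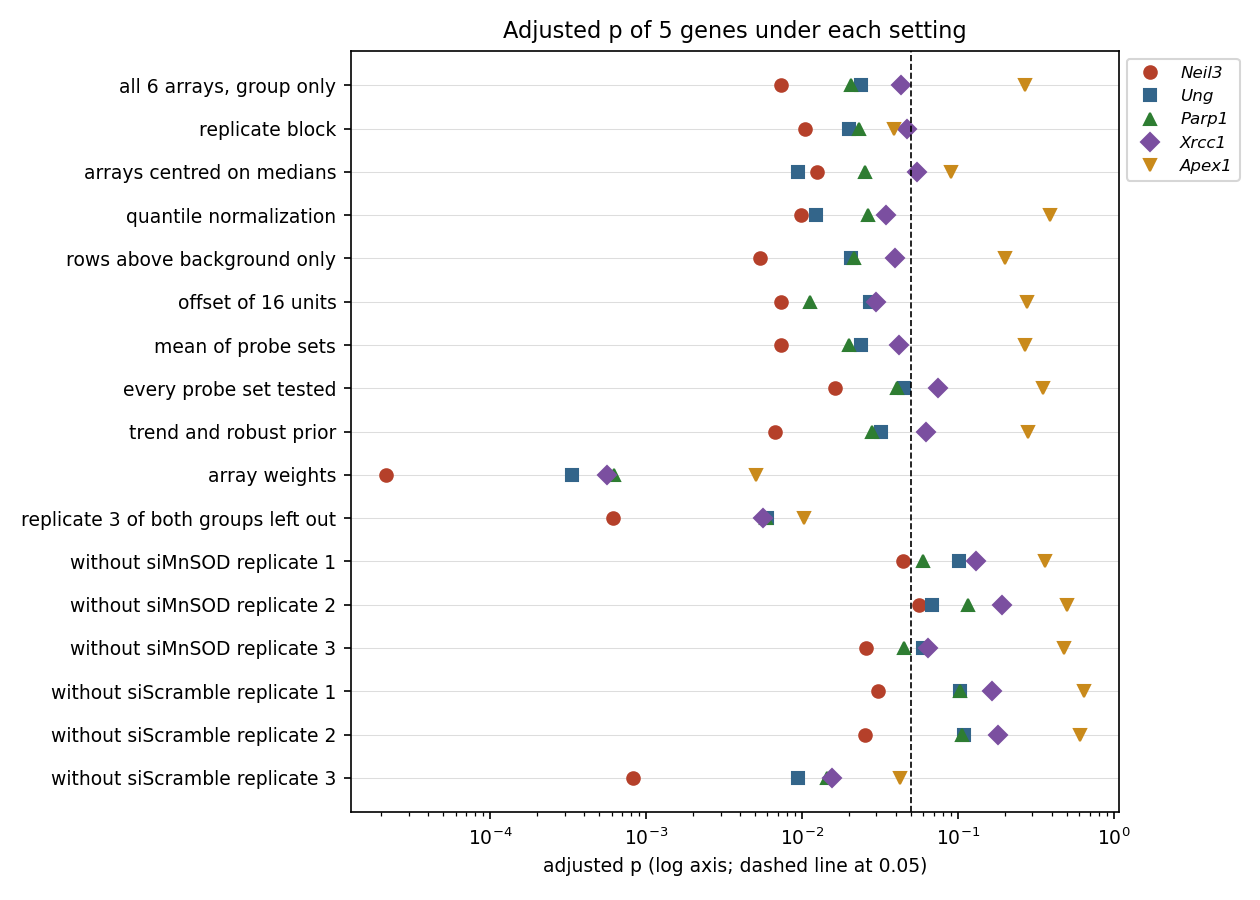
Adjusted p of Neil3, Ung, Parp1, Xrcc1 and Apex1 under each processing setting and with each array left out (log axis, dashed line at 0.05). Neil3 stays left of the line except without siMnSOD replicate 2, where it is 0.056. Without siScramble replicate 3, or without the replicates numbered 3 of both groups, all 5 genes lie left of the line.

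The promoters of the 4 genes that rose are shown because their RNA moved in the same direction, with that of Nthl1 beside them as a gene whose groups overlapped. RefSeq windows of GRCm38.p6, from 250 bases before the start to 50 after it on the gene's strand, were at hand for 9 of the 10 members (Polb was not matched). Capitals mark each match, on either strand, to 6 motifs: E2F (TTTGGCGC, TTTCGCGC, TTTCCCGC, TTTGCCGC, TTTGGCGG or TTTCCCGG), the cell cycle element CHR (TTTGAA or TTCGAA), the GC box (GGGCGG), NRF1 (GCATGCGC), the antioxidant response element core (TGACNNNGC) and the CCAAT box (CCAAT). The windows are chr8:53639016-53639315 (minus strand) for Neil3, chr5:114130185-114130484 (plus) for Ung, chr1:180568641-180568940 (plus) for Parp1, chr7:24546449-24546748 (plus) for Xrcc1 and chr17:24632432-24632731 (plus) for Nthl1.
Neil3: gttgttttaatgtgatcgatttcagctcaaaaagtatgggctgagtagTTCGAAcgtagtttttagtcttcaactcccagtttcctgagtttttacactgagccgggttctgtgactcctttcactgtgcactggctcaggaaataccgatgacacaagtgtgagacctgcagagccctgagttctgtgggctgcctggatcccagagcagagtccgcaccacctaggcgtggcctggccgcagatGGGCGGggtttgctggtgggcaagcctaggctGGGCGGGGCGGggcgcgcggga
Ung: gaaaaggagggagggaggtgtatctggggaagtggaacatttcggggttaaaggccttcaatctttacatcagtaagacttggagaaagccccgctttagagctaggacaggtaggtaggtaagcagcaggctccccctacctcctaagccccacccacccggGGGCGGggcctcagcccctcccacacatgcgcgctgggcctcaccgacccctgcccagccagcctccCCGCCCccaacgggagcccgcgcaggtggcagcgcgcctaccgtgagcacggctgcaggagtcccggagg
Parp1: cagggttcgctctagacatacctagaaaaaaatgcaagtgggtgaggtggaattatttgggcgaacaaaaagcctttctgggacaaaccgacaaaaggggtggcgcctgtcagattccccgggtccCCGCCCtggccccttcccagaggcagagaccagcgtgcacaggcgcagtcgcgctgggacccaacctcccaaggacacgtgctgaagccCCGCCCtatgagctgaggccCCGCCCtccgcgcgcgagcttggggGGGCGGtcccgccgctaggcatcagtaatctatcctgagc
Xrcc1: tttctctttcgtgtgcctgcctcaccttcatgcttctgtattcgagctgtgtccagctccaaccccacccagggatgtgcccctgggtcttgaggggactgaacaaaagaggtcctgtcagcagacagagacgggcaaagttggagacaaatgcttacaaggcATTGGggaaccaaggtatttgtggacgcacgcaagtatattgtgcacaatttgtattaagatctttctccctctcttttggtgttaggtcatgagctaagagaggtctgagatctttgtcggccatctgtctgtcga
Nthl1: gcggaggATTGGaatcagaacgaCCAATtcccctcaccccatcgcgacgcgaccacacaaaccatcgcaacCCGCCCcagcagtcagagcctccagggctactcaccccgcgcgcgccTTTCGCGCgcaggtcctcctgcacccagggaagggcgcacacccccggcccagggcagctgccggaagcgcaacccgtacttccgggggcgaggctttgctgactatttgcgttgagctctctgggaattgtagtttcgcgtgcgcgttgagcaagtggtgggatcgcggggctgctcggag

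Neil3 holds 1 CHR match, at base −202 from the start, and 3 GC boxes, of which 2 share 1 base. Ung holds 2 GC boxes and Parp1 4. Xrcc1 has no GC box and a single CCAAT match, on the opposite strand, and its window is 49.3% G and C with 7 CpG pairs, against medians of 52.7% and 7 over all windows and 65.3% and 30 in Nthl1. The E2F letters occur in none of the 4 windows. Among all members with a window they occur only in that of Nthl1, with 1 match at base −132, and not in those of the other genes that were not called. Of the genes not called, Ogg1, Mutyh, Apex1 and Nthl1 also hold GC boxes, and Apex1 also holds a CHR match. The antioxidant response element core occurs among the members only in the Neil1 window. Over 32851 windows of the same length, 3.98% hold an E2F match, 19.2% a CHR match, 35.7% a GC box, 2.71% an NRF1 match, 12.4% an antioxidant response element core and 37.4% a CCAAT box. A match is a run of letters and not a measured site, and these arrays hold no binding data.

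The other lists hold genes that supply or complete the pathway. The long-patch list held clamp, loader, polymerase, flap nuclease and ligase genes, most of which also copy DNA in S phase. Of its 16 members, 10 were higher and none lower, against 2.17% and 1.58% of all genes. The median log2 fold change was 1.50, and 15 values were positive, as were 10421 over all 19938 genes. The 10 were the ligase gene Lig1 (2.28, SE 0.14), the DNA polymerase delta genes Pold1 (2.54, SE 0.17) and Pold2 (1.42, SE 0.14), the flap nuclease gene Fen1 (2.27, SE 0.29), the clamp gene Pcna (1.14, SE 0.18), the clamp loader genes Rfc1 (0.67), Rfc2 (1.68) and Rfc4 (1.58), and the single-strand binding protein genes Rpa1 (1.60) and Rpa2 (1.70). Lig1 read 589, 636 and 610 in siMnSOD cells, against 136, 142 and 105 in siScramble cells, with no overlap. Leaving out siMnSOD replicate 1 or 2 left 4 of the 16 called, and leaving out siScramble replicate 1 left 6, whereas Lig1, Rfc2, Pold1 and Pold2 passed in all 6 such fits.

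The short-patch and strand-end list had no called member among 10 measured of 11 listed, with a median of 0.14, and 3 members were higher and 1 lower at an unadjusted p under 0.05, against 8.61% and 8.06% of all genes. Those with the smallest p were Tdp1 (0.39, SE 0.10, adjusted p = 0.10), which frees trapped topoisomerase from strand ends, Aptx (−0.53, SE 0.16, adjusted p = 0.14), which clears stalled ligation ends, and the DNA polymerase lambda gene Poll (0.43, SE 0.16, adjusted p = 0.25). Tdp1 has 2 probe sets, and their mean gave 0.20 (adjusted p = 0.52 in limma). Aptx read 48.6, 49.3 and 44.3 in siMnSOD cells, against 83.2, 68.8 and 56.2 in siScramble cells, without overlap. Whether long-patch and short-patch genes differed in their change was not tested.

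Enzymes that clean the nucleotide pool before damaged precursors reach DNA had 1 called member among 4 measured of 5 listed, with a median of 0.66. Over all genes, 2.17% were called higher. The called member was Dut, which breaks down dUTP and so keeps uracil out of DNA, at 158, 179 and 165 in siMnSOD cells, against 102, 89.9 and 107 in siScramble cells (log2 fold change 0.75, SE 0.12, adjusted p = 0.021). With the replicate block 3 passed, the others being Nudt1 (0.75, adjusted p = 0.063, or 0.024 with the block) and Nudt5 (0.58, adjusted p = 0.15, or 0.045), which were named after their values were seen. Of all genes, 4.02% were called higher with the block. NUDT1, also called MTH1, destroys 8-oxo-dGTP. Nudt1 read 200, 222 and 170.0 in siMnSOD cells, against 136, 121 and 96.1 in siScramble cells, and its groups did not overlap. The call of Dut held without siScramble replicate 3 alone among the fits that left out 1 array.

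The remaining glycosylases and the mitochondrial DNA enzymes had no called member. Among 4 measured glycosylase genes of 5 listed the median was 0.20, and 1 was higher at an unadjusted p under 0.05 (8.61% of all genes). It was Mbd4, which acts on thymine and uracil opposite guanine in CpG pairs, at 93.5, 70.0 and 86.3 in siMnSOD cells, against 39.6, 42.7 and 65.0 in siScramble cells (0.79, SE 0.21, adjusted p = 0.11). The alkylpurine glycosylase gene Mpg had 0.30 (SE 0.13, adjusted p = 0.31), and Neil2 lay under the background guide on all 6 arrays, with 10.6 to 13.3 in siMnSOD cells and 11.0 to 13.5 in siScramble cells. The 7 mitochondrial DNA repair and replication genes had a median of 0.15, with 1 lower at an unadjusted p under 0.05 (8.06% of all genes). Those with the smallest p were the mitochondrial helicase gene Twnk (−0.34, SE 0.12, adjusted p = 0.21), the mitochondrial nuclease gene Exog (0.32, SE 0.14, adjusted p = 0.32) and the primase-polymerase gene Primpol (0.20, SE 0.10, adjusted p = 0.42).

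**Figure D4:**
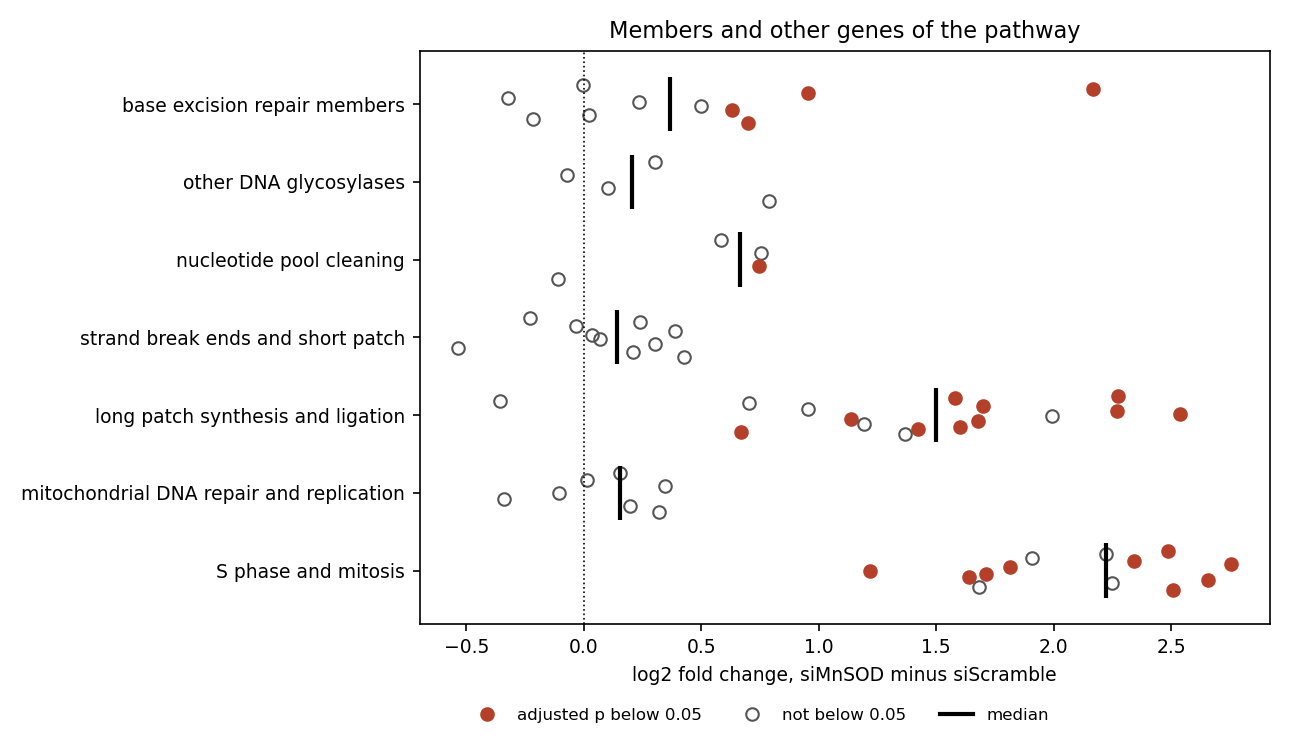
Log2 fold change, siMnSOD minus siScramble, of each base excision repair member and of each gene in the other lists (points, filled where the adjusted p is under 0.05), with the median of each list as a black bar. The members' median is 0.37, the long-patch list's 1.50 and the S phase and mitosis list's 2.22, while the short-patch, other glycosylase and mitochondrial lists lie between 0.14 and 0.20.

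The list of S phase and mitosis genes was given beside the repair genes because these genes were already known to be higher in siMnSOD cells. Its direction is thus no new result. All 13 measured genes of that list had higher values on every siMnSOD array, against 11.1% of all genes. Of the 13, 9 were called higher and none lower, against 2.17% and 1.58% of all genes. The list's median log2 fold change was 2.22. The called genes were the helicase genes Mcm2, Mcm3, Mcm4, Mcm5, Mcm6 and Mcm7 (1.22 to 2.76), the cyclin gene Ccne1 (2.34), the thymidine kinase gene Tk1 (2.51) and the ribonucleotide reductase gene Rrm2 (2.66). The 4 genes not called were Mki67 (2.22, SE 0.79), Top2a (1.91, SE 0.63), Ccna2 (2.25, SE 0.70) and Cdk1 (1.68, SE 0.52). Their adjusted p in limma was 0.15 to 0.22, and each was lowest on the siScramble array numbered 3. Within replicate numbers 1 and 2 their log2 differences were 0.83 to 1.74, and within number 3 they were 2.79 to 4.16. The mean log2 level of the list was 9.71 to 9.82 on the siMnSOD arrays and 6.96 to 8.05 on the siScramble arrays, and the siScramble array numbered 3, where Neil3 was at background, was the lowest of all. Ung and Xrcc1 had their highest siScramble value on that same array. The part of this shift in the values of Neil3, Ung, Parp1 and Xrcc1 was not tested.

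The genes above background whose log2 values followed each called member most closely over the 6 arrays were S100a10, Kif24 and E2f8 for Neil3 (Pearson r 0.998, 0.997 and 0.997), Tmem234, Ccdc88c and Rpusd1 for Ung (0.994, 0.994 and 0.993), Tspan15, Gltp and Zdhhc2 for Parp1 (0.996 for each) and Paqr7, Hsd17b12 and Mdm1 for Xrcc1 (0.998, 0.998 and 0.996). The log2 fold change was 0.64 (SE 0.11) for S100a10, 1.28 (SE 0.15) for Kif24 and 2.78 (SE 0.22) for E2f8. It was 0.23 to 0.40 for the genes named for Ung, 0.99 to 1.39 for those of Parp1 and 0.49 to 0.92 for those of Xrcc1. The 4 sets share no gene, and with 6 arrays in 2 groups these coefficients include the difference between the groups.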

How the data were processed

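RNA of 3 siMnSOD and 3 siScramble cultures was hybridised to 1 array each. As deposited, the values are linear normalized intensities, the antilogs of log2 values. They were made by the authors with RMA per the submitters' processing notes, while the labels' design text names MAS5. For the version and the background correction, the sources used here give nothing. From these, log2 values were fitted with limma 3.58.1 (lmFit and eBayes, group alone) in R 4.3.3, with Benjamini-Hochberg adjustment over 21559 rows and a threshold of 0.05. The brightest probe set stood for each gene, and 1621 rows with several symbols were tested but not named. Symbols were updated through Entrez identifiers to RefSeq (GRCm38.p6), which matched 21698 of 21789 probe sets with 1 symbol. The fit was tested on simulated data with independent noise for each row and array. Those data held no shift shared by arrays of the same replicate number, so that test does not bear on such shifts here.

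The members, gene lists, motifs and tests were chosen with earlier results of these data known. Values are given for all members, and for list genes that were called, or for the 3 with the smallest p where none was. Nudt1, Nudt5 and the S phase and mitosis genes not called were added after their values were seen. For each called member the 3 genes above background with the highest Pearson r were named. Deviations from the group means of arrays with the same replicate number correlated at 0.298, 0.286 and 0.559. No label says what the number stands for, and replicates 1 and 2 correlated more with each other's number (0.466 and 0.407). Pairing by number was thus not settled, and the main fit took group alone. Alternatives were the replicate block, median centring, quantile normalization, an offset, a filter on dim genes, the mean of or every probe set, a trended robust prior, array weights, and arrays left out. Array number limits the precision.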

Additional observations from a re-analysis of the deposited data

How the results depend on the processing

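Adding the replicate block gave 801 genes higher and 623 lower (432 and 316 without it), 3 nucleotide pool genes higher in place of 1, and the call of Apex1, and it changed no other call among the members and Sod2. Array weights gave 2486 of 19938 genes higher and 2188 lower, and leaving out replicate 3 of both groups gave 2343 and 1932. Testing every probe set gave 278 and 154. Median centring left 140 lower and made 72.3% of the calls higher, against 57.8%. Under these weights, and without the replicates numbered 3, 1 member (Polb) and 1 short-patch gene were lower. In the same settings 1 other glycosylase gene (also with median centring), 3 pool cleaning genes and 1 mitochondrial gene were higher. A single call lower among the members or short-patch genes, or a single call among the mitochondrial genes, is near the share of all genes there. Short-patch genes called higher numbered 3 with weights, 4 without the replicates numbered 3 and 1 with an offset. Weights called 1 mitochondrial gene lower, and quantile normalization 2 pool cleaning genes higher. The S phase and mitosis median was 1.54 with weights and 1.56 without the replicates numbered 3, and the mitochondrial median 0.24 with median centring and 0.014 with the mean of probe sets. Sod2 missed the threshold with median centring (−1.54, adjusted p = 0.069 in limma) and every probe set (−1.63, 0.063). Neil1, near 0, changed sign to 0.083 with median centring, 0.042 with quantile normalization, 0.10 with weights and 0.14 without the replicates numbered 3, as did Neil2 (0.015) with median centring. The cause of these shifts was not tested.

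With each array left out in turn, Sod2 ranged from −1.88 to −1.27 (adjusted p 0.022 to 0.13), members called higher from 0 to 5, all genes higher from 52 to 1119 and lower from 25 to 1119. The median of the members ranged from 0.26 to 0.53, the long-patch median from 1.33 to 1.67 with 4 to 12 called higher, the mitochondrial median from −0.013 to 0.19 and the S phase and mitosis median from 1.50 to 2.37. Other glycosylase genes called higher ranged from 0 to 1, pool cleaning genes from 0 to 2, and short-patch genes from 0 to 1 in either direction. Fold changes near 0 changed sign, with Nthl1 from −0.089 to 0.18, Neil1 from −0.16 to 0.25 and Neil2 from −0.17 to 0.00033. With 3 arrays a group, the values leave room for changes in Ogg1, Mutyh, Nthl1 or Neil1 within the intervals given, and siScramble values of Neil3 lie close to background.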
